A study of Mus musculus with 6 samples.

Results

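Complement and coagulation factors are plasma proteins that the liver makes and secretes, and this account covers the mRNA of 44 of their genes in mouse liver. The members were taken by name, as the rows of the deposited count table whose Ensembl identifiers map to 44 listed mouse symbols. All 44 were found among the 55401 genes of the table. By role they comprise 14 complement effectors, 6 complement regulators, 14 clotting factors, 6 anticoagulants and 4 genes of fibrinolysis. The study sequenced polyadenylated RNA of fresh liver tissue from C57BL/6 mice in 2 groups of 3 libraries. The OP group was treated with okra polysaccharide (OP), a carbohydrate preparation from the okra plant, and its labels do not name a diet. The HFCF group ate a diet rich in fat, in cholesterol and in fructose. The labels give neither age nor sex, there is no comparison with mice on standard chow, and it is not said if each sample was a different animal. The p-values below therefore set the difference between groups against the spread among these libraries only, part of which may be technical.

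Complement is a cascade of plasma proteases. Lectins or antibodies on a microbial surface lead to cleavage of C4, C2 and C3, factor B amplifies that step through the alternative pathway, and C5 to C9 assemble into the membrane attack complex. Coagulation is a second cascade, in which the contact and tissue factor pathways converge on factor X and thrombin, thrombin turns fibrinogen into fibrin, and serpins and the protein C system hold the reaction in check. Plasmin then dissolves fibrin. Hepatocytes are the main source of most of these proteins, and several, fibrinogen and C3 among them, are known as acute phase proteins.

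Library totals ran from 46459980 to 61918541 counts, and every member was covered by at least 793 counts in each library, so counting error was small beside the spread between libraries. Levels are given as CPM, counts scaled to the TMM-adjusted size of the library, unless TPM is named. Within groups, replicates 1 and 2 of HFCF were closest, with a chi-square per degree of freedom of 46.2, and the other pairs had 148 to 349.7. Mitochondrially encoded mRNA took 7.48%, 6.08% and 14.4% of counts in the OP libraries, against 22.03%, 18.8% and 14.1% in the HFCF libraries, so that replicate 3 of both groups met near 14%. The tissue label fitted the hepatocyte markers: the 8 markers summed to 41554 to 65163 CPM in OP and 28686 to 47765 CPM in HFCF, with Alb, the albumin gene, at 50265, 44088 and 28908 CPM in the OP libraries, against 15870.2, 16246 and 32978 CPM in the HFCF libraries. Alb made up most of the sum in each library, and the markers did not all point the same way. Log2 fold changes of OP over HFCF were above 0 for 5 of the 8 and below 0 for 3. In bulk tissue, fewer cells of a type and less RNA per cell cannot be told apart.

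Of the 44 genes, 3 were lower in OP and none was higher at an adjusted p under 0.05 in the edgeR quasi-likelihood test, Benjamini-Hochberg adjusted over 17394 genes. C6, which joins the membrane attack complex after C5, F11, the contact pathway protease factor XI, and Pros1, the protein C cofactor protein S, fell, with log2 fold changes of -0.79, -0.76 and -0.68. Background rates were 3.26% of 17394 tested genes called higher and 3.47% called lower. At an unadjusted p under 0.05 in the edgeR test, 14 members were higher and 7 lower, against 13% and 12.2% of all tested genes. Other tools called more members: DESeq2 called 10 higher and 7 lower, and limma-voom 1 higher and 4 lower. They also called more of all 17394 genes, DESeq2 1269 higher and 1265 lower, and limma-voom 645 higher and 674 lower. The edgeR test called 567 higher and 603 lower. Every OP library lay above every HFCF library for 15 members and below for 7, while 15.8% and 15.4% of all tested genes separated in those directions. The median log2 fold change of the members was 0.30, and that of all tested genes 0.02. In all, 35 of 44 members, or 79.5%, had a log2 fold change above 0, beside 51.4% of all tested genes. With the mitochondrial mRNA share as a covariate 24 of 44 were above 0 and the members' median was 0.0282. None of the 3 genes passed in that fit, at log2 fold changes of -0.80 for C6, -0.75 for F11 and -0.45 for Pros1 and edgeR adjusted p of 0.203, 0.168 and 0.233.

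**Figure D1:**
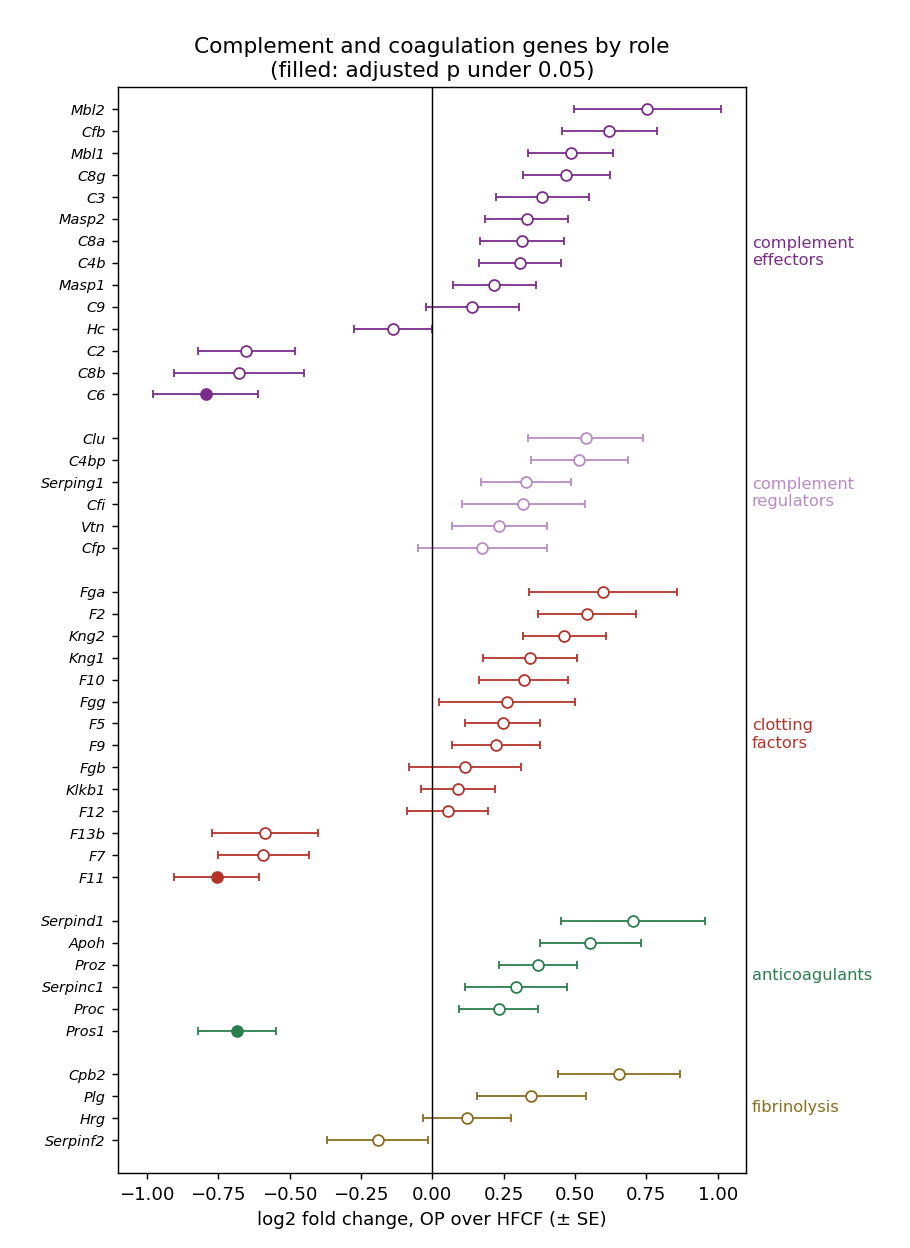
Log2 fold change of OP over HFCF (x axis, with the standard error of the edgeR fit) for each of the 44 genes, grouped by role, n = 3 libraries per group. Filled points mark C6, F11 and Pros1, the 3 genes with an adjusted p under 0.05, all of them to the left of 0, while 35 of the 44 points lie to the right.

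Promoters were read for the 3 genes that fell, C6, F11 and Pros1, and for the neighbouring pairs C8b and C8a and F7 and F10, whose members stood on opposite sides of 0. Each stretch holds the 250 bases before the start site in RefSeq (GRCm38.p6), on the gene's own strand: C6 at chr15:4726960-4727209, plus strand; F11 at chr8:45262032-45262281, minus strand; Pros1 at chr16:62854057-62854306, plus strand; C8b at chr4:104766067-104766316, plus strand; C8a at chr4:104876399-104876648, minus strand; F7 at chr8:13025784-13026033, plus strand; F10 at chr8:13037058-13037307, plus strand. Capitals mark matches on either strand to 4 motifs, namely GTTAAT (an HNF1 half-site), TTGCNNAA (C/EBP), AGGTCA (a nuclear receptor half-site) and TTCNNNGAA (STAT).
C6: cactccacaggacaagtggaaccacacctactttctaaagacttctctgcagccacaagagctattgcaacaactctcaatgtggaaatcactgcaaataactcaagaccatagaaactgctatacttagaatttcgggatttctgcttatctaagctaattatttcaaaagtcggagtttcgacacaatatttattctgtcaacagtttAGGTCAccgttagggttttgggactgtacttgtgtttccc
F11: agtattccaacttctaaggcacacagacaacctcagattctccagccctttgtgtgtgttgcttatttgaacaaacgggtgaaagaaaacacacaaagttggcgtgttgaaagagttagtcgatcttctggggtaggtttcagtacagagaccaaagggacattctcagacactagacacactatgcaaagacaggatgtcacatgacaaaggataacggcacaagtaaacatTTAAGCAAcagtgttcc
Pros1: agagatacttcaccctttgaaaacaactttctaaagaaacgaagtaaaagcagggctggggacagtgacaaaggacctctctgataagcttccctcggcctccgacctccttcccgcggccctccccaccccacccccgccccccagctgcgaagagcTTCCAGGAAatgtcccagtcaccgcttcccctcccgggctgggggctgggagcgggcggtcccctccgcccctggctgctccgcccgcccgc
C8b: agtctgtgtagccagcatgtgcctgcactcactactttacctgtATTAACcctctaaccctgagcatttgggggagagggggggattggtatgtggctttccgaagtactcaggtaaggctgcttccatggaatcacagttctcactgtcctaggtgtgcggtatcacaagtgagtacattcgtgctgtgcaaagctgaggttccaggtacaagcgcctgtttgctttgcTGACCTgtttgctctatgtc
C8a: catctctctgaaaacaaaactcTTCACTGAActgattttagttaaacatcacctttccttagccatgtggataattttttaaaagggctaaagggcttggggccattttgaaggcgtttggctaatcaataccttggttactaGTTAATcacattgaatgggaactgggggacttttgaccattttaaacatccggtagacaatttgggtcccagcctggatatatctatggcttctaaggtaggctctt
F7: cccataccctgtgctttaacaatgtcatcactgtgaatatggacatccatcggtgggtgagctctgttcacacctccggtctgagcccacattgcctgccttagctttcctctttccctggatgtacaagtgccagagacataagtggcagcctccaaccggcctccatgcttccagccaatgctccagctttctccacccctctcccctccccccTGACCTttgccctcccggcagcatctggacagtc
F10: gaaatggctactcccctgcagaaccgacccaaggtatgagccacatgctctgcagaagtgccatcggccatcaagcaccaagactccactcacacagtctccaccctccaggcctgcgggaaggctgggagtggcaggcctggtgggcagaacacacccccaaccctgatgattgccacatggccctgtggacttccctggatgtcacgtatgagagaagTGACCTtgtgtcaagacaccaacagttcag

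Of the 44 members, 34 had an entry in the promoter table. AGGTCA occurred in 12 of the 34, against 13.8% of 27025 promoters of the same length, GTTAAT in 10 against 6.52%, TTGCNNAA in 9 against 9.55% and TTCNNNGAA in 6 against 7.18%. F7 (log2 fold change -0.59) and F10 (0.32) both held AGGTCA near the start site, at positions -34 and -30 relative to it. C8b held GTTAAT and AGGTCA, and C8a held GTTAAT and the STAT motif. C6 held AGGTCA, F11 the C/EBP motif and Pros1 the STAT motif, so the 3 promoters shared none of the 4. No 2 matches overlapped in these 7 sequences. A match describes the letters only.

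Levels per length spanned a wide range. TPM, which divides counts by the length of each gene's principal transcript, put Apoh, encoding the phospholipid-binding beta-2-glycoprotein I, first at 2857 ± 335 TPM in OP and 1836 ± 458 TPM in HFCF (SD, n = 3 each). Vtn, encoding vitronectin, and Kng1, encoding the bradykinin precursor kininogen, came next, at 1688 ± 265 and 1438 ± 172 TPM in OP, and 1346 ± 263 and 1070.3 ± 243 TPM in HFCF. Lowest were Pros1 and Cfp, the properdin gene, at 17.7 ± 0.791 and 19.8 ± 3.31 TPM in OP, and 26.7 ± 1.82 and 16.8 ± 4.61 TPM in HFCF. The 7 members whose OP libraries all lay below the HFCF libraries stood at ranks 32 to 43 of 44 by TPM, and at ranks 33 to 43 when counts were divided by coding length instead. Of the 15 members whose OP libraries all lay above, 9 were among the first 22. This reading of rank was made after the values were seen and carries no test. The length used moved some ranks: Fgb stood at rank 3 by coding length and 8 by TPM, and Serpinc1 at 5 and 14.

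**Figure D2:**
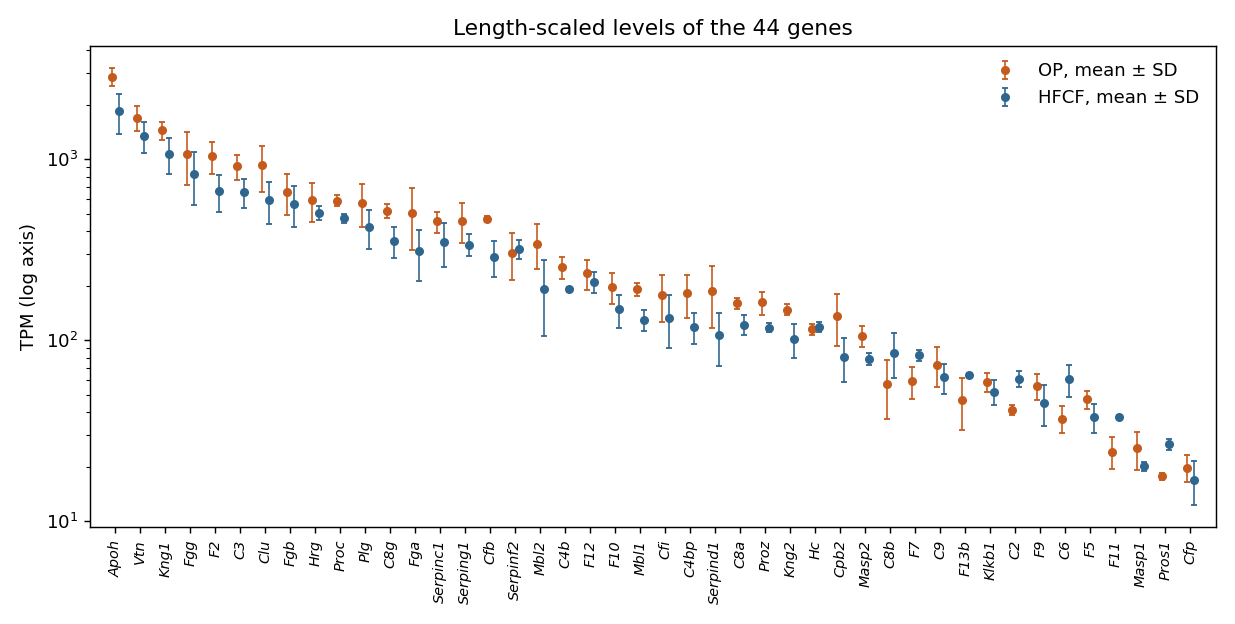
Mean TPM with SD (log axis) of the 44 genes in OP and HFCF livers, n = 3 libraries per group, ordered by the mean over all 6 libraries. Apoh is highest and Cfp lowest, and the genes with OP means below HFCF means sit mainly at the right.

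Among the complement effectors, 1 of 14 fell, none rose and 13 did not pass, with a median log2 fold change of 0.31. C6 (ENSMUSG00000022181) had 58.7, 83.7 and 86.3 CPM in the OP libraries, against 125, 120.2 and 151 CPM in the HFCF libraries. Its groups did not overlap, with OP replicate 1 the lowest and HFCF replicate 3 the highest. The log2 fold change was -0.79 ± 0.184 (SE), with an adjusted p = 0.0415 in the edgeR quasi-likelihood test, Benjamini-Hochberg adjusted over 17394 genes. C6 kept its call only without OP replicate 3 among the 6 libraries left out in turn, and its log2 fold change over those 6 fits ran from -0.89 to -0.64.

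Mbl1 and Mbl2 encode the mannose-binding lectins, which recognise sugars on microbes and start the lectin pathway, and neither passed the test. Mbl1 had 182, 217 and 244 CPM in the OP libraries, against 151, 148 and 161 CPM in the HFCF libraries, without overlap (log2 fold change 0.49 ± 0.149, adjusted p = 0.0866 in the same edgeR test). For Mbl2 the values were 280.4, 295 and 208 CPM in the OP libraries, against 119.8, 125 and 219.8 CPM in the HFCF libraries. HFCF replicate 3 was above OP replicate 3 for this gene, and the log2 fold change of 0.75 ± 0.258 was the highest of all 44 (adjusted p = 0.113). With mitochondrial mRNA as covariate it was 0.0178, no longer the highest. Masp2, the lectin-bound protease that cleaves C4 and C2, averaged 230.3 ± 28.3 CPM in OP, against 183 ± 12.3 CPM in HFCF. Masp1, the protease that activates it, was the least abundant effector by TPM and had 109, 92.5 and 83.2 CPM in the OP libraries, against 85.2, 81.3 and 78.8 CPM in the HFCF libraries. Their log2 fold changes were 0.33 and 0.22, and neither passed the test. Masp2 shares 1817 exon bases, 54.94% of its own, with Tardbp on the opposite strand in GENCODE M21. Whether reads were counted by strand is not stated, so reads from the shared bases cannot be told apart. Tardbp averaged 240 ± 33.1 CPM in OP, against 293 ± 14.8 CPM in HFCF, and did not pass (log2 fold change -0.29 ± 0.147).

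C2 and Cfb encode the homologous proteases of the classical and alternative C3 convertases, and they stood on opposite sides of 0. C2 had 67.6, 78.2 and 89.6 CPM in the OP libraries, against 135, 132 and 102 CPM in the HFCF libraries. Cfb, the factor B gene, had 822, 893 and 1031 CPM in the OP libraries, against 548, 546 and 691 CPM in the HFCF libraries. Neither gene's groups overlapped, and log2 fold changes were -0.65 ± 0.169 for C2 and 0.62 ± 0.167 for Cfb, with adjusted p of 0.0571 and 0.0628 in the edgeR quasi-likelihood test, just over the threshold. DESeq2 and limma-voom called both. On the same strand, the predicted gene Gm20547 shares 42.8% of the exon bases of C2 and 79.5% of those of Cfb. Gm20547 had 0 counts in every library, and how reads shared between genes were assigned is not stated, so both levels and their ratio are uncertain to that extent. C3, the central component and the most abundant member by CPM, had 3475, 3357 and 3155 CPM in the OP libraries, against 2407, 2411 and 2825 CPM in the HFCF libraries, without overlap (log2 fold change 0.39 ± 0.164, adjusted p = 0.187). C4b, which encodes the C4 that the classical and lectin pathways cleave, averaged 968 ± 36.2 CPM in OP, against 783 ± 65.6 CPM in HFCF. It has a close copy, C4a, at 73.7, 79.1 and 267 CPM in the OP libraries, against 42.6, 44.03 and 36.8 CPM in the HFCF libraries, where OP replicate 3 stood far above the rest. Summed, the copies had a log2 fold change of 0.43 ± 0.150, against 0.31 ± 0.144 for C4b alone, and neither passed the edgeR test (adjusted p = 0.122 and 0.226).

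In the terminal pathway the genes of the C8 subunits lay on both sides of 0. C8 is built from an alpha, a beta and a gamma chain, encoded by C8a, C8b and C8g. C8b had 83.8, 118 and 68.2 CPM in the OP libraries, against 127, 127 and 176 CPM in the HFCF libraries. C8a had 358, 416 and 471 CPM in the OP libraries, against 323, 341 and 338 CPM in the HFCF libraries, and C8g had 378, 439 and 460.3 CPM in the OP libraries, against 293, 281 and 349 CPM in the HFCF libraries. No chain's groups overlapped, with C8b lower and the other chains higher in OP, at log2 fold changes of -0.68, 0.31 and 0.47. None of the 3 passed the edgeR test (adjusted p = 0.108, 0.226 and 0.0977). Of the summed TPM of the 3 chains, C8b made up 8.04, 9.56 and 5.43% in the OP libraries, against 14.2, 14.4 and 16.6% in the HFCF libraries. That share did not overlap between groups (exact permutation test, two-sided, p = 0.1, the smallest that 3 against 3 allows, and 0.16 after Benjamini-Hochberg adjustment). This followed from the levels of the 3 chains, so the test adds no support to them. Hc, the mouse gene for C5, averaged 447 ± 21.4 CPM in OP, against 492 ± 37.7 CPM in HFCF. C9, which forms the pore, averaged 106 ± 17.8 CPM in OP, against 96.1 ± 9.26 CPM in HFCF. Their log2 fold changes of -0.14 ± 0.136 and 0.14 ± 0.162 did not pass the test.

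All 6 complement regulators had log2 fold changes above 0, from 0.17 to 0.54 with a median of 0.32, and none passed the test. With mitochondrial mRNA as covariate, Cfi (-0.30) and Clu (-0.0241) were below 0 and the regulators' median was 0.0272. C4bp, whose product binds C4b and serves as cofactor for its breakdown, had 402, 446 and 317 CPM in the OP libraries, against 263, 245 and 306 CPM in the HFCF libraries, the only regulator whose groups did not overlap. The adjusted p was 0.104 in the edgeR quasi-likelihood test and 0.0383 in DESeq2. Vtn, most abundant of the regulators, had 2053, 2227 and 1991 CPM in the OP libraries, against 1746, 1567 and 2017 CPM in the HFCF libraries. Clu, encoding clusterin, averaged 1174 ± 221 CPM in OP, against 808 ± 141 CPM in HFCF, with its OP replicate 3 below HFCF replicate 3. Serping1, the C1 inhibitor gene, averaged 567 ± 83.3 CPM in OP, against 452 ± 26.0 CPM in HFCF, and Cfi, whose protease factor I cuts C3b and C4b, averaged 259 ± 52.0 CPM in OP, against 208 ± 50.1 CPM in HFCF. Cfp encodes properdin, which stabilises the alternative convertase and is made mainly by leukocytes. It had 17.3, 24.1 and 28.8 CPM in the OP libraries, against 16.4, 25.3 and 20.5 CPM in the HFCF libraries, and its groups overlapped throughout.

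Clotting factors had 1 of 14 members lower, none higher and 13 that did not pass, with a median log2 fold change of 0.24. F11 (ENSMUSG00000031645), encoding factor XI, had 39.3, 41.5 and 34.2 CPM in the OP libraries, against 72.5, 64.0 and 57.6 CPM in the HFCF libraries. The groups did not overlap, with OP replicate 3 lowest and HFCF replicate 1 highest. The log2 fold change was -0.76 ± 0.148 (SE) and the adjusted p 0.0251 in the edgeR quasi-likelihood test, Benjamini-Hochberg adjusted over 17394 genes. F11 kept its call without OP replicate 2, OP replicate 3 or HFCF replicate 3, and lost it without OP replicate 1, HFCF replicate 1 or HFCF replicate 2. Over these 6 fits its log2 fold change stayed between -0.83 and -0.67. The rest of the contact system did not pass. Klkb1, the plasma prekallikrein gene next to F11, averaged 219 ± 11.8 CPM in OP, against 206 ± 13.1 CPM in HFCF. It shares 43.2% of its exon bases with Gm45753 on the same strand, which had 0 to 9 counts per library, so its level and the ratio of F11 to it carry the same uncertainty. F12, factor XII, averaged 324 ± 25.1 CPM in OP, against 312 ± 28.4 CPM in HFCF. Kng1 and Kng2 encode kininogens and share sequence. Kng1, the most abundant clotting member by TPM, had 1904, 1843 and 1864 CPM in the OP libraries, against 1372, 1333 and 1723 CPM in the HFCF libraries. Kng2 averaged 242 ± 11.1 CPM in OP, against 175 ± 23.8 CPM in HFCF, and their sum had a log2 fold change of 0.36 ± 0.166 (adjusted p = 0.224 in the same edgeR test).

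F7 encodes factor VII, the protease that tissue factor activates. It had 87.7, 74.0 and 71.9 CPM in the OP libraries, against 133, 119.99 and 99.2 CPM in the HFCF libraries, without overlap, a log2 fold change of -0.59 ± 0.159 and an adjusted p = 0.0627 in the edgeR quasi-likelihood test. F13b, the carrier subunit of the fibrin cross-linking factor XIII, had 80.1, 94.2 and 58.6 CPM in the OP libraries, against 126, 114 and 109.99 CPM in the HFCF libraries. Its OP libraries also lay below all HFCF libraries, at a log2 fold change of -0.59 ± 0.186 (adjusted p = 0.0944). Prothrombin, from F2, pointed the other way, with 1522, 1544 and 1295 CPM in the OP libraries, against 925, 898 and 1171 CPM in the HFCF libraries (log2 fold change 0.54 ± 0.172, adjusted p = 0.0931). Upstream of thrombin, F10 averaged 349 ± 31.3 CPM in OP, against 279.7 ± 39.2 CPM in HFCF, F5 averaged 249 ± 3.23 CPM in OP, against 210.2 ± 20.3 CPM in HFCF and F9 averaged 108 ± 5.92 CPM in OP, against 92.2 ± 15.4 CPM in HFCF. These encode factor X, its cofactor factor V, and factor IX, and their log2 fold changes of 0.32, 0.25 and 0.22 did not pass.

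Fibrinogen is a dimer of alpha, beta and gamma chains from Fga, Fgb and Fgg. Fga had 1053, 1073 and 602 CPM in the OP libraries, against 509, 534 and 759 CPM in the HFCF libraries. Fgb had 1919, 1915 and 1455 CPM in the OP libraries, against 1477, 1454 and 1955 CPM in the HFCF libraries, and Fgg had 1354, 1492 and 933 CPM in the OP libraries, against 911, 897 and 1344 CPM in the HFCF libraries. In all 3 genes OP replicate 3 lay below HFCF replicate 3, and the other OP libraries lay above the other HFCF libraries. Log2 fold changes were 0.60 ± 0.259, 0.11 ± 0.195 and 0.26 ± 0.237, and none passed the edgeR test (adjusted p = 0.194, 0.765 and 0.542). Of the summed TPM of the 3 chains, Fga made up 23.8, 23.1 and 19.98% in the OP libraries, against 17.5, 18.5 and 18.4% in the HFCF libraries. Its share was higher in each OP library than in any HFCF library (exact permutation test, two-sided, p = 0.1, the smallest possible). After Benjamini-Hochberg adjustment over 16 ratios and shares, that p was 0.16. The shares of Fgb and Fgg overlapped between groups. In a fit with mitochondrial mRNA as covariate, Fga, Fgb and Fgg had log2 fold changes of -0.25, -0.35 and -0.44, on the other side of 0.

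In the anticoagulant group 1 of 6 members fell, none rose and 5 did not pass, with a median log2 fold change of 0.33. Pros1 (ENSMUSG00000022912), which encodes protein S, had 39.5, 40.6 and 45.5 CPM in the OP libraries, against 71.0, 70.2 and 60.4 CPM in the HFCF libraries. The groups did not overlap, and HFCF replicate 3 was the HFCF library nearest to OP. The log2 fold change was -0.68 ± 0.138 (SE), with an adjusted p = 0.0274 in the edgeR quasi-likelihood test, Benjamini-Hochberg adjusted over 17394 genes. Pros1 kept its call without OP replicate 3 or HFCF replicate 3 and lost it without any of the other 4 libraries, at log2 fold changes of -0.76 to -0.64. Its partner gene Proc, encoding the protease zymogen protein C, averaged 664 ± 43.98 CPM in OP, against 565 ± 30.8 CPM in HFCF and did not pass (log2 fold change 0.23 ± 0.138).

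Apoh, the most abundant anticoagulant member, had 2407, 2443 and 2411 CPM in the OP libraries, against 1545, 1429 and 1971 CPM in the HFCF libraries. Its OP libraries were close together and above all HFCF libraries (log2 fold change 0.55 ± 0.176, adjusted p = 0.094 in the edgeR quasi-likelihood test). Serpind1, the heparin cofactor II gene, averaged 285 ± 81.0 CPM in OP, against 175 ± 41.6 CPM in HFCF, at a log2 fold change of 0.70 that DESeq2 called and the edgeR test did not, and at -0.11 with mitochondrial mRNA as covariate. Serpinc1, which encodes antithrombin, averaged 1600.4 ± 64.5 CPM in OP, against 1306 ± 256 CPM in HFCF. On the opposite strand Serpinc1 shares 2942 exon bases with Zbtb37, and reads from the shared bases cannot be told apart without strand. Zbtb37 was lower in OP (16.3 ± 1.77 CPM in OP, against 45.4 ± 3.88 CPM in HFCF, adjusted p = 0.00303 in the edgeR test). Proz encodes protein Z, the cofactor through which the serpin of Serpina10 inhibits factor Xa. It had 419, 354 and 389 CPM in the OP libraries, against 313, 303 and 282 CPM in the HFCF libraries, without overlap (log2 fold change 0.37 ± 0.136, adjusted p = 0.134). Serpina10, which is no member, rose to 144 ± 11.3 CPM in OP, against 84.6 ± 10.5 CPM in HFCF (log2 fold change 0.76 ± 0.146, adjusted p = 0.0231).

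None of the 4 fibrinolysis genes passed, and in each of them the groups overlapped. Cpb2, whose carboxypeptidase protects fibrin from plasmin, had 149.8, 167 and 105 CPM in the OP libraries, against 83.4, 75.4 and 109 CPM in the HFCF libraries. It was the member of this role with the smallest p (log2 fold change 0.65 ± 0.213, adjusted p = 0.0995 in the edgeR quasi-likelihood test). Plg, the plasminogen gene, had 1087, 1323 and 933 CPM in the OP libraries, against 809.9, 781 and 1037 CPM in the HFCF libraries, and shares 420 exon bases with Slc22a3 on the opposite strand. Serpinf2, encoding the plasmin inhibitor alpha-2-antiplasmin, averaged 465 ± 92.9 CPM in OP, against 531 ± 41.3 CPM in HFCF, and Hrg, encoding a histidine-rich glycoprotein that binds plasminogen and heparin, had 833, 714 and 626 CPM in the OP libraries, against 679, 654 and 665 CPM in the HFCF libraries. Their log2 fold changes were -0.19 ± 0.178 and 0.12 ± 0.155.

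**Figure D3:**
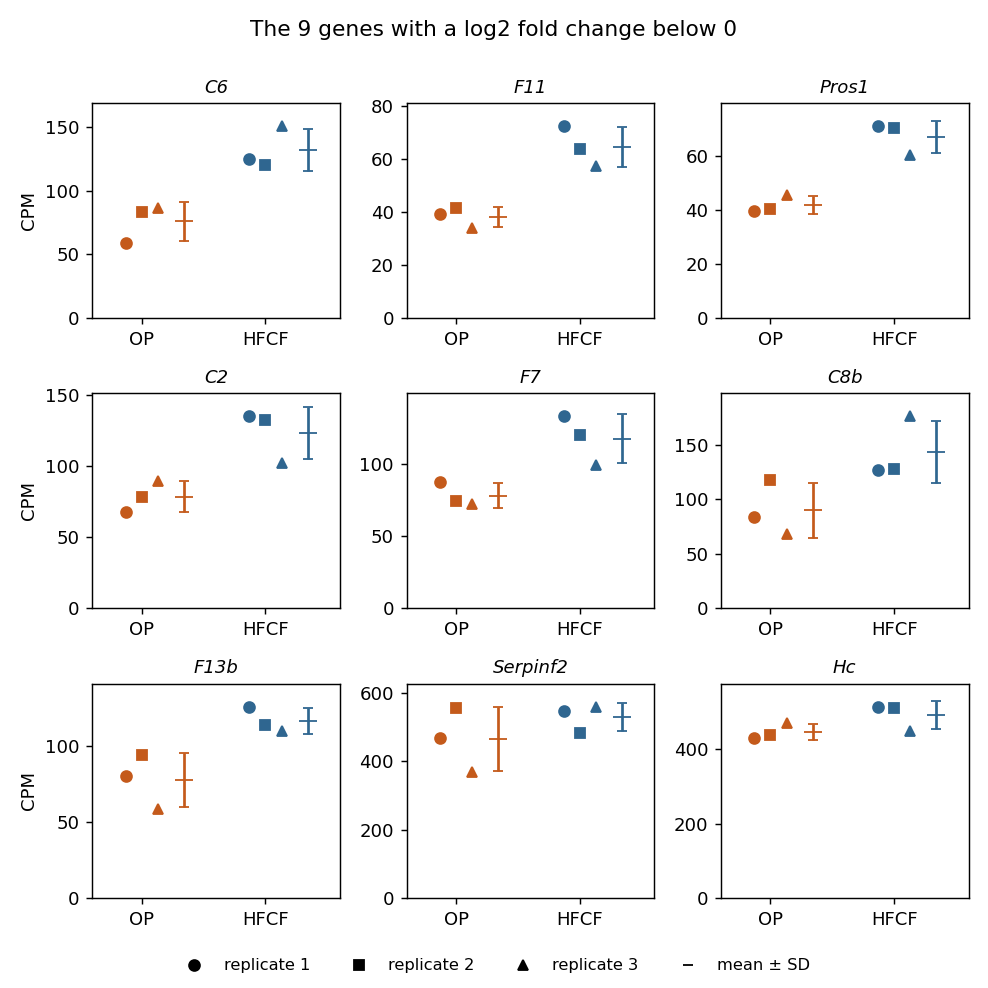
CPM in each library, with mean and SD, of the 9 genes with a log2 fold change below 0, n = 3 libraries per group. For C6, F11, Pros1, C2, F7, C8b and F13b the 3 OP libraries lie below the 3 HFCF libraries, while Serpinf2 and Hc overlap.

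Several members lie next to each other in the genome, with 9 pairs of members that follow each other among the protein-coding genes of RefSeq (GRCm38.p6), and this allowed neighbours to be compared within a library, where scaling between libraries plays no part. These ratios were chosen after the values were seen. C2 lies beside Cfb, and it had 8.23, 8.75 and 8.70 counts in the OP libraries, against 24.6, 24.2 and 14.8 counts in the HFCF libraries per 100 counts of Cfb. C8b lies beside C8a, with 23.4, 28.2 and 14.5 counts in the OP libraries, against 39.4, 37.4 and 52.1 counts in the HFCF libraries per 100 counts of C8a. F7 is followed by F10, and had 24.3, 19.8 and 22.9 counts in the OP libraries, against 48.5, 49.3 and 30.9 counts in the HFCF libraries per 100 counts of F10. F11 lies beside Klkb1, with 19.0, 18.0 and 15.5 counts in the OP libraries, against 37.4, 31.5 and 26.2 counts in the HFCF libraries per 100 counts of Klkb1. In these 4 pairs the OP ratios averaged from 0.403 (C2 and Cfb) to 0.553 (F11 and Klkb1) times the HFCF ratios, and no library of a group crossed into the other. HFCF replicate 3 stood nearest to OP in 3 of them and farthest from OP for C8b. Proz, on the far side of F10, behaved otherwise, with 116, 94.7 and 124 counts in the OP libraries, against 114, 125 and 87.6 counts in the HFCF libraries per 100 counts of F10, and the groups overlapped. Exact permutation tests (two-sided) over a family of 16 ratios and shares gave p = 0.1 for each of the 4 pairs. That is the smallest value possible with 3 against 3, and was 0.16 after Benjamini-Hochberg adjustment. For C2 and Cfb, and for C8b and C8a, this was fixed by the levels, since each gene's groups already stood apart in opposite directions. The groups of F7 and F11 were also already apart, so these tests add no support beyond the levels.

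**Figure D4:**
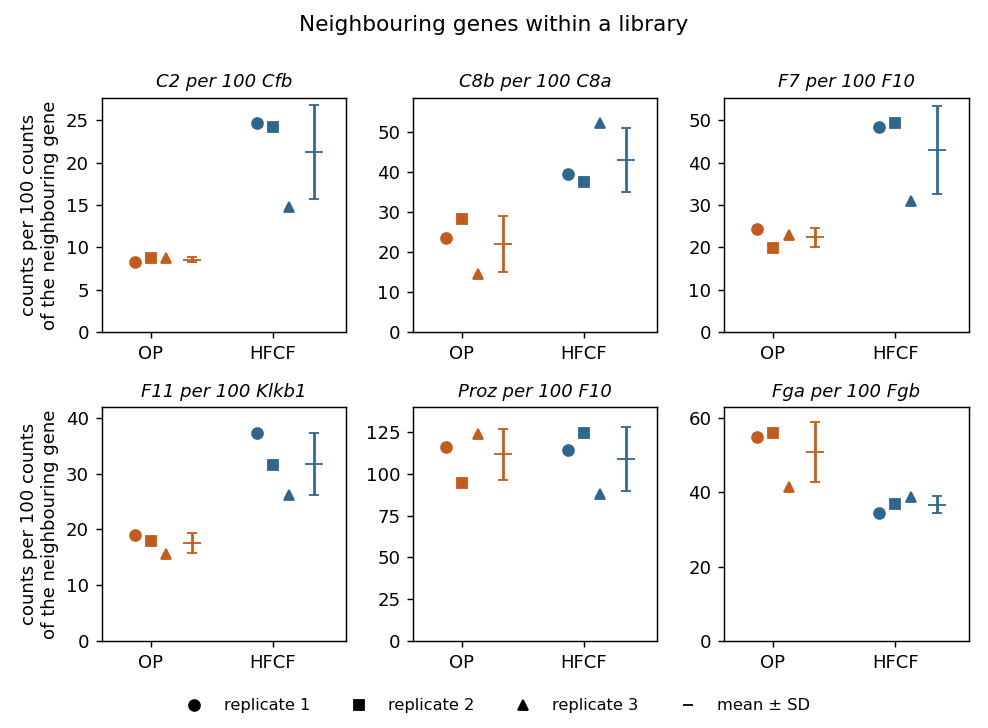
Counts of the first gene per 100 counts of its neighbour in each library, with mean and SD, n = 3 libraries per group. C2, C8b, F7 and F11 have lower ratios in all OP libraries, Fga per 100 Fgb is higher in all of them, and Proz per 100 F10 overlaps.

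Compared by role, the 5 medians lay between 0.23 and 0.33, and each role had members above 0. Members below 0 numbered 4 of 14 complement effectors, 0 of 6 regulators, 3 of 14 clotting factors, 1 of 6 anticoagulants and 1 of 4 fibrinolysis genes. Summed over the role, complement effectors reached 7549.9, 7759 and 7645 CPM in the OP libraries, against 5959.7, 5874 and 6546 CPM in the HFCF libraries. Anticoagulants summed to 5422, 5455 and 5318 CPM in the OP libraries, against 3901, 3599 and 4681 CPM in the HFCF libraries. For these 2 roles the groups stood apart. The most abundant gene of each sum, C3 or Apoh, had groups that stood apart as well. C3 averaged 3329 CPM in OP and 2547 CPM in HFCF, and Apoh 2420 CPM in OP and 1648 CPM in HFCF. Complement regulators summed to 4641, 4933 and 3932 CPM in the OP libraries, against 3359, 3192 and 4060.4 CPM in the HFCF libraries, clotting factors to 9461, 9614 and 7749.9 CPM in the OP libraries, against 6762, 6583 and 8638 CPM in the HFCF libraries, and fibrinolysis genes to 2539, 2759 and 2033 CPM in the OP libraries, against 2121, 1994 and 2371 CPM in the HFCF libraries. In those 3 roles OP replicate 3 lay below HFCF replicate 3, the library of its group with the least mitochondrial mRNA. Fitted with mitochondrial mRNA as covariate, the medians were 0.16 for complement effectors, 0.03 for regulators, -0.08 for clotting factors, 0.21 for anticoagulants and -0.07 for fibrinolysis. The share went largely with the group, so its part in these values cannot be told apart from that of the treatment.

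**Figure D5:**
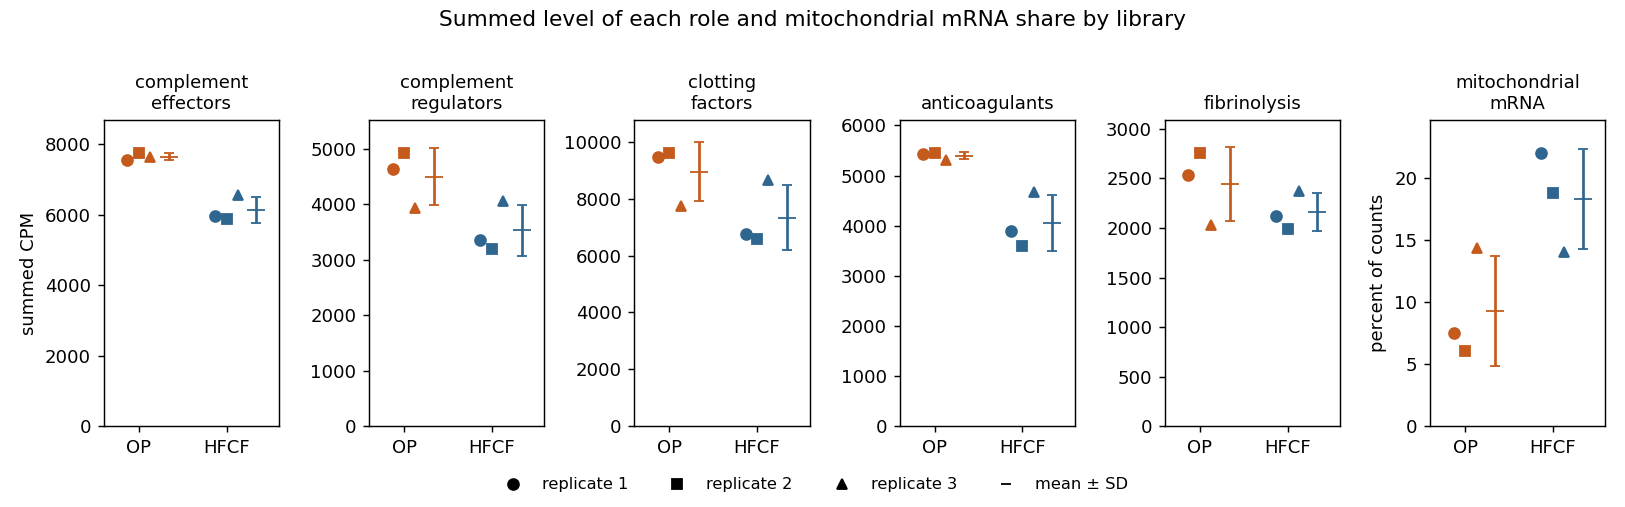
Summed CPM of the genes of each role, and the percent of counts in mitochondrially encoded mRNA, in each library with mean and SD, n = 3 libraries per group. The groups stand apart for complement effectors and anticoagulants, while OP replicate 3 (triangle) lies below HFCF replicate 3 in the other roles, and both of these libraries are near 14% mitochondrial mRNA.

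Other genes of the same cascades were counted from lists. Of 33 tested complement genes outside the members, none passed in either direction in the edgeR quasi-likelihood test, 7 had an unadjusted p under 0.05, all higher, and the median log2 fold change was 0.05. The smallest p belonged to Cpn1, a subunit of the carboxypeptidase that inactivates C3a and C5a, at 250.4, 242 and 195 CPM in the OP libraries, against 129, 125 and 173 CPM in the HFCF libraries (adjusted p = 0.0554). Of 21 other clotting and fibrinolysis genes, 2 rose and none fell, namely Serpina10 and Anxa2, whose annexin binds plasminogen and its activator. Anxa2 had 17.9, 17.2 and 19.2 CPM in the OP libraries, against 8.67, 12.3 and 8.50 CPM in the HFCF libraries (log2 fold change 0.88 ± 0.180, adjusted p = 0.0285 in the edgeR quasi-likelihood test, Benjamini-Hochberg adjusted over 17394 genes). None of 6 genes of the vitamin K cycle and factor secretion passed. Vkorc1, which recycles vitamin K for the carboxylation of factors II, VII, IX and X and proteins C, S and Z, averaged 139 ± 22.1 CPM in OP, against 92.4 ± 18.3 CPM in HFCF (adjusted p = 0.0956).

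Other genes of liver secretion were counted beside the members. Among 21 other plasma proteins of hepatocytes, 2 rose, 1 fell and 18 did not pass, with 17 above 0 and a median log2 fold change of 0.40, beside 0.30 for the members. Ttr, encoding transthyretin, rose to 6891 ± 698 CPM in OP, against 3153 ± 569.5 CPM in HFCF, and Ces1c rose by 0.72 (log2). Itih3, an inter-alpha-trypsin inhibitor heavy chain, fell to 608 ± 8.74 CPM in OP, against 912 ± 88.3 CPM in HFCF. Adjusted p came to 0.019, 0.0492 and 0.0488 in the edgeR quasi-likelihood test. Acute phase reactants, a class to which fibrinogen and C3 also belong, had 4 of 16 higher, none lower and 12 that did not pass. Over all tested genes, 3.26% were called higher. Of the 16 reactants, 11 were above 0 and 5 below, with a median of 0.32. At an unadjusted p under 0.05 in the edgeR test, 6 of them were higher and 2 lower. By log2 fold change, those that rose were the serum amyloid genes Saa4 (1.56), Saa3 (1.54) and Saa2 (1.13) and the lipocalin Lcn2 (1.004). Some of the Saa genes are close copies, so the split of reads between such copies is uncertain. Saa3 was low, at 5.82, 7.15 and 16.4 CPM in the OP libraries, against 3.40, 3.35 and 3.32 CPM in the HFCF libraries.

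Markers of other cell types were measured beside the members. All 8 Kupffer cell and macrophage markers had log2 fold changes below 0 and none passed, summing to 152 to 252 CPM in OP and 263 to 345 CPM in HFCF. Cd5l, a macrophage gene and the one with the smallest p among them, averaged 48.7 ± 20.6 CPM in OP, against 87.3 ± 12.96 CPM in HFCF (adjusted p = 0.107 in the edgeR test). All 3 tested of 7 neutrophil markers and all 5 tested of 6 platelet markers were below 0 as well, at sums of 0.4999 to 3.12 CPM in OP and 3.31 to 6.68 CPM in HFCF for neutrophils and 5.05 to 8.01 CPM in OP and 7.59 to 12.3 CPM in HFCF for platelets. Lymphocyte markers summed to 5.02 to 18.1 CPM in OP and 12.7 to 24.4 CPM in HFCF, with all 6 below 0 (median log2 fold change -0.53). Cholangiocyte markers summed to 56.8 to 85.9 CPM in OP and 51.1 to 128 CPM in HFCF, with all 5 tested below 0 (median -0.24). Sinusoidal endothelial markers, 4 of 7 above 0, summed to 124 to 168 CPM in OP and 125 to 197 CPM in HFCF and stellate cell markers, also 4 of 7 above 0, to 168 to 236 CPM in OP and 144 to 205 CPM in HFCF. No gene of these lists passed. All 4 tested of 6 adipocyte markers were above 0 (median log2 fold change 2.61) and none passed, and their list summed to 17.5 to 86.6 CPM in OP and 6.51 to 26.5 CPM in HFCF, including Cfd, the factor D gene that adipocytes express, at 12.2, 26.5 and 63.0 CPM in the OP libraries, against 0, 0.104 and 3.32 CPM in the HFCF libraries (adjusted p = 0.0626 in the edgeR quasi-likelihood test). Among hepatocyte markers, 1 of 8 fell, namely the urea cycle gene Cps1 (log2 fold change -1.43 ± 0.287, adjusted p = 0.0274 in the edgeR test). The rest did not pass. The list was split, with 5 of the 8 above 0 and 3 below, from -1.50 to 0.92, and a median of 0.33. The part of cell composition in the members' values was not tested.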

How the data were processed

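Per the labels' protocols, total RNA was extracted with Trizol, mRNA was captured with oligo(dT) beads and fragmented, and libraries with dUTP in the second strand were sequenced paired-end on a NovaSeq instrument. Cutadapt 1.9, FastQC and the build GRCm39 are named in the submitters' processing notes, and no aligner, counter or strand setting is named in the sources used here. The deposited file holds raw counts, whole numbers for each gene and each of the 6 libraries. A count of 4 was commoner than 3 or 5 in every library, so several counts may stand for 1 read pair.

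Symbols were matched on Ensembl identifiers (55141 of 55401), and all 44 members were found. The members and lists were chosen with earlier results of these data known. Genes were kept by filterByExpr (17394 of 27893 with any count), scaled by TMM and tested for OP over HFCF with edgeR 4.0.16 (glmQLFit, glmQLFTest) in R 4.3.3, two-sided, at a Benjamini-Hochberg adjusted p under 0.05. Each standard error is the absolute log2 fold change over the root of F. TPM used the principal GENCODE M21 transcript (GRCm38), which also gave exon overlaps. Sums of close copies were refitted in place of their rows. Ratios were tested with exact permutation tests (scipy 1.17.1). Alternatives were DESeq2 1.42.0, limma-voom (limma 3.58.1), other scalings, filters and thresholds, a block, a covariate, counts divided by 4 and leaving out each library. Values in every library are given for members that passed, for the member of each role with the smallest p and the most and least abundant ones, and for others chosen after their values were seen. Other genes named are those of a list that passed, or else the one with the smallest p, apart from genes whose exons overlap a member. Alb, C4a, Zbtb37 and Tardbp were chosen after their values were seen. SDs are over 3 libraries. The tests were tried on simulated counts with known changes.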

Additional observations from a re-analysis of the deposited data

How the results depend on the processing

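Across the alternatives the number of members called ran from 0 to 10 higher and from 0 to 7 lower. DESeq2 called 10 higher and 7 lower, and limma-voom 1 higher. An adjusted p threshold of 0.1 gave 7 higher and 6 lower, and one of 0.01 gave 0 lower. A filter of 1 CPM in 3 libraries or counts divided by 4 gave 5 lower each. Over all genes, limma-voom called 645 higher and 674 lower, and the threshold of 0.1 gave 1322 higher and 1230 lower. The filter of 1 CPM gave 714 and 815 of 13298 genes, and counts divided by 4 gave 739 and 824 of 14027. Leaving out each library in turn gave 0 to 3 higher and 0 to 4 lower, with 0 of either without OP replicate 1, HFCF replicate 1 or HFCF replicate 2, and 1 lower without OP replicate 2. The mitochondrial mRNA share as a covariate gave 1 lower (C8b), and medians of 0.0282 for the members, 0.16 for complement effectors, 0.0272 for regulators, -0.0828 for clotting factors and -0.0744 for fibrinolysis; under all other alternatives the median of the members stayed between 0.19 and 0.33. With that covariate these genes changed sign: Hc (0.0411), C9 (-0.22), Cfi (-0.30), Clu (-0.0241), F9 (-0.0633), F12 (-0.10), Fga (-0.25), Fgb (-0.35), Fgg (-0.44), Klkb1 (-0.00706), Serpind1 (-0.11), Plg (-0.11) and Hrg (-0.0437). Near 0, C9 without OP replicate 2 (-0.000495; -0.000495 to 0.24 over the 6 fits), Cfp without OP replicate 3 (-0.000452; -0.000452 to 0.35 over the 6 fits) and F12 without HFCF replicate 2 (-0.0537; -0.0537 to 0.12 over the 6 fits) did so too. The cause was not tested. With the replicate number as a block, no member passed, and over all genes 87 were higher and 93 lower, against 567 and 603 in the reported fit. DESeq2 called 1269 and 1265 genes, the covariate fit 110 and 97, the test without a low-count filter 298 and 400 (C6 then missed the threshold, adjusted p = 0.0604), and leaving out a library 34 to 655 and 54 to 655. Same-numbered libraries did not deviate together (correlations of 0.02, -0.13 and -0.16), so the numbers were not taken to pair the samples. With 3 libraries per group, a missed threshold does not show equal levels.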
